A study of Mus musculus with 24 samples.

Results

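The 12 libraries described here are those of tumours grown from Chek2 knock-out cells, taken from the 24 libraries of the study, and the question is whether anti-PD-1 changed the same genes by the same amount in both tumour lines. They fall into 4 groups of 3: knock-out MC38 tumours given PBS, knock-out MC38 tumours given anti-PD-1, knock-out B16 tumours given PBS and knock-out B16 tumours given anti-PD-1. MC38 is a mouse colon carcinoma line and B16 a mouse melanoma line. RNA was taken from whole tumour tissue in mice, so each library holds tumour cells and host cells together. PBS is the vehicle control, and anti-PD-1 is an antibody against the T cell receptor PD-1. The knock-out of Chek2 is common to all 12 libraries. The other 12 libraries come from tumours of the parental Chek2-WT cells of both lines under the same treatments, and they are used only for reference. The labels do not say whether a knock-out line is 1 clone, nor whether the 3 libraries of a group come from separate animals, so the p-values measure the spread between these libraries. In whole-tumour RNA, fewer cells of a type and less RNA per cell cannot be told apart.

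CHK2, the product of Chek2, is a kinase that ATM switches on when DNA is broken, and it acts on repair and on the cell cycle. PD-1 on activated T cells restrains them when it meets its ligand PD-L1 on tumour or myeloid cells, and blocking antibodies lift that restraint. T cells that become active in a tumour release granzymes, perforin and interferon-gamma, and interferon-gamma acts on nearby cells to raise chemokines and the MHC genes that present antigen. B16 cells are known for a very low basal level of MHC class I, while MC38 cells carry more of it.

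Values are FPKM, fragments scaled to transcript length and library size, and differences are on the log2(FPKM + 1) scale, which understates the change of genes below a few FPKM. The response of a line is its anti-PD-1 mean minus its PBS mean, with 3 libraries in each. The line difference is the B16 response minus the MC38 response, so a positive value is a larger rise or a smaller fall in B16. A gene was tested when it reached 1 FPKM in at least 3 of the 12 libraries, which left 14856 genes. Calls are at a limma adjusted p (Benjamini-Hochberg over all tested genes) under 0.05. Genes were also sorted by whether all 3 anti-PD-1 libraries lay above, or below, all 3 PBS libraries of the line, which is called separation without overlap.

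One feature of the treated B16 libraries touches every result on B16. The 3 knock-out B16 anti-PD-1 libraries had summed FPKM of 375193 to 398474, against 310868 to 344059 in the other 9 knock-out libraries. Their response also ran with transcript length, from a median of 0.47 in the shortest 10 percent of protein-coding genes to -0.54 in the longest 10 percent. Across 12078 protein-coding genes the Spearman correlation of the response with length was -0.591 in knock-out B16, -0.165 in knock-out MC38, 0.005 in Chek2-WT MC38 and 0.044 in Chek2-WT B16, where all genes share the same libraries and are not independent. These 3 libraries are the whole of one group, so this feature and the treatment cannot be told apart. Results are therefore also given after centring. Within classes of genes of like length and GC content, each library was shifted so that its median deviation from the gene means was 0. The gene means were taken over all libraries in the fit.

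**Figure D1:**
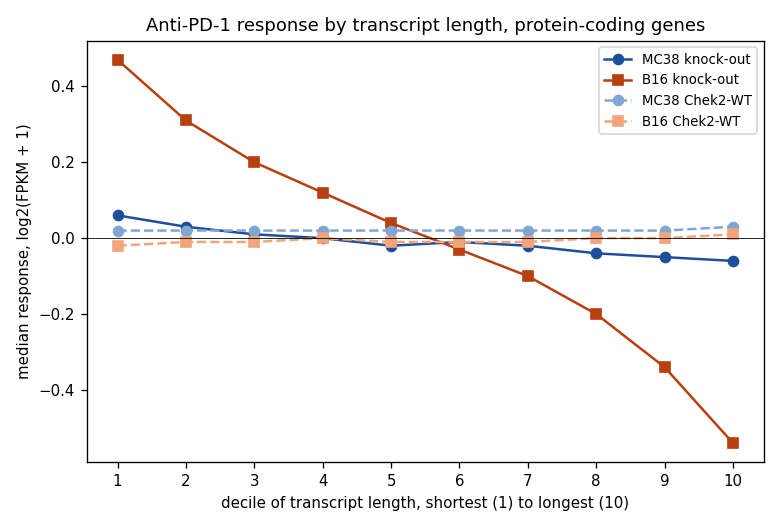
Median response on the log2(FPKM + 1) scale (vertical axis) of protein-coding genes in 10 classes of transcript length (horizontal axis), for both lines and both genotypes. The knock-out B16 responses slope most, from 0.47 in the shortest class to -0.54 in the longest.

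Replicate 1 of the same group also held much RNA of other tissues. The summed level of 15 skeletal muscle markers was 2570, 234 and 14.5 FPKM in the 3 knock-out B16 anti-PD-1 libraries and 3.53 to 3.91 FPKM in the B16 PBS libraries. In MC38 it ran from 3.92 to 174 FPKM with PBS and from 42.1 to 665 FPKM with anti-PD-1. The 9 erythroid markers listed summed to 15600 FPKM in that B16 library and to 2110 and 1090 FPKM in the others of its group, against 3540, 3720 and 276 FPKM in the B16 PBS libraries, so that PBS and anti-PD-1 overlap. The part that this tissue RNA plays in the line difference was not tested, so values without this library are given for some of the counts.

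The targeted gene itself, Chek2 (chromosome 5, 110839979 to 110874145, GRCm38), was still detected in the knock-out libraries. In MC38 it measured 2.20, 2.40 and 1.92 FPKM with PBS and 3.23, 3.06 and 3.37 FPKM with anti-PD-1. In B16 it measured 5.68, 5.64 and 5.67 FPKM with PBS and 6.5, 6 and 6.75 FPKM with anti-PD-1. The Chek2-WT libraries ran from 4.61 to 6.14 FPKM in MC38 and from 7.17 to 9.29 FPKM in B16, so within each line every knock-out library lay below every Chek2-WT library. The line difference of Chek2 was -0.26 ± 0.12 (SE) with a limma adjusted p of 0.132 and a 95% interval of -0.51 to 0.00.

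Far more genes passed in B16 than in MC38. In knock-out MC38, 436 genes rose and 173 fell, which is 2.93% and 1.16% of the genes tested. In knock-out B16, 2886 rose and 3558 fell, or 19.4% and 23.9%. The line difference itself passed for 3295 genes, of which 1255 (8.45%) were higher in B16 and 2040 (13.7%) lower. With centring, 479 genes rose and 186 fell in MC38 (3.23% and 1.25%), 2482 rose and 2133 fell in B16 (16.7% and 14.4%), and the line difference passed for 870 higher and 936 lower genes (5.86% and 6.3%). Of these 1806 line differences, 1376 were also called without centring in the same direction.

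When protein-coding genes alone were scaled to equal sums, the median B16 response shifted to -0.14 and the median line difference to -0.13. The calls then split as 1372 higher and 4036 lower in B16, and as 527 higher and 2239 lower for the line difference. The MC38 count was the least stable, at 103 without PBS replicate 2, 123 without PBS replicate 3, 115 without anti-PD-1 replicate 2, 153 without anti-PD-1 replicate 3 and 978 without B16 anti-PD-1 replicate 1. Leaving out anti-PD-1 replicate 1 of MC38, or replicate 1, 2 or 3 of B16 PBS, gave 399, 339, 382 and 404. Without B16 anti-PD-1 replicate 1, the B16 count was 5116 in place of 6444. The line difference count was then 2794 in place of 3295.

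Some responses had the same direction in both lines. Without overlap, 2139 genes (14.4%) lay above PBS in MC38 and 3764 (25.3%) in B16, and 949 (6.39%) did so in both. Below PBS lay 2260 genes (15.2%) in MC38, 4061 (27.3%) in B16 and 899 (6.05%) in both. In opposite directions, 321 genes (2.16%) lay above PBS in MC38 and below it in B16, and 333 (2.24%) the reverse. Among the 436 genes that rose in MC38, 256 also lay above PBS without overlap in B16, while 54 of the 173 that fell in MC38 lay below it there. By the limma test in each line, 166 genes rose in both, 43 fell in both, 26 rose in MC38 and fell in B16, and 16 fell in MC38 and rose in B16.

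In the Chek2-WT tumours the same contrast between lines passed for 1 gene (0.00673%), with 1042 genes at an unadjusted p under 0.05 by limma. There, 36 genes lay above PBS in both lines and 47 below it in both. The test of whether the line difference itself differed between genotypes passed for 1855 genes (12.5%), and for 774 with centring. Across the 14856 genes the responses of both lines had a Pearson correlation of 0.402 and a Spearman correlation of 0.295 in knock-out tumours, and of -0.052 and -0.006 in Chek2-WT tumours. Genes of one library are not independent, and the correlations are given as a description.

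**Figure D2:**
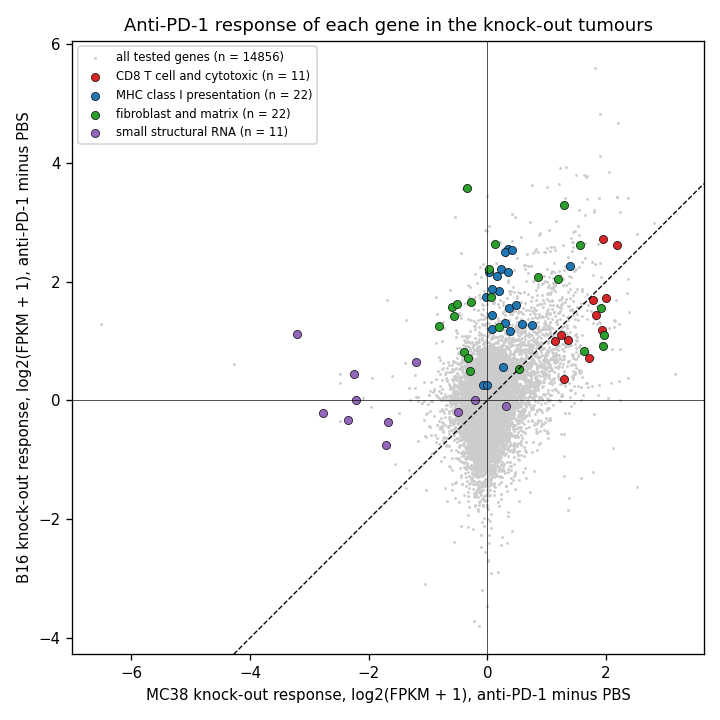
Response of each of 14856 genes in knock-out MC38 (horizontal axis) and knock-out B16 (vertical axis), in log2(FPKM + 1), with 4 gene lists in colour and the line of equal response dashed. Cytotoxic T cell genes lie above 0 on both axes, MHC class I (22 of 22) and matrix genes (17 of 22) lie mostly above the dashed line, and small structural RNAs lie to the left.

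Genes of cytotoxic T cells rose in both lines. Of 13 genes listed for CD8 T cells and cytotoxicity, 11 were tested, 9 rose in MC38 and 9 in B16, and 10 lay above PBS without overlap in both. The median response was 1.79 in MC38 and 1.18 in B16, against -0.02 and 0.00 over all tested genes. The summed level of the list ran from 14.9 to 29.0 FPKM in MC38 PBS and from 88.2 to 130 FPKM in MC38 anti-PD-1 libraries. In Chek2-WT MC38 tumours it ran from 112 to 122 FPKM with PBS and from 108 to 131 FPKM with anti-PD-1. The MC38 rise in the knock-out tumours therefore started from a level below every Chek2-WT MC38 library. In knock-out B16 the sum ran from 4.21 to 7.73 FPKM with PBS, and was 79.6, 16.8 and 39.9 FPKM with anti-PD-1. Chek2-WT B16 libraries ran from 5.51 to 9.69 FPKM with PBS and from 4.35 to 23.3 FPKM with anti-PD-1. Without B16 anti-PD-1 replicate 1, 8 of the 11 rose in B16, with a median of 0.96.

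Cd8a, a chain of the CD8 co-receptor, measured 1.21, 0.585 and 0.775 FPKM in MC38 PBS and 6.06, 6.94 and 5.11 FPKM in MC38 anti-PD-1 libraries. In B16 its values were 0.0621, 0.210 and 0.276 FPKM with PBS and 2.68, 0.613 and 2.21 FPKM with anti-PD-1. Treated and control libraries did not overlap in either line, and B16 replicate 2 was the lowest of the treated libraries. The response was 1.93 in MC38 (limma adjusted p = 0.0064) and 1.18 in B16 (limma adjusted p = 0.0048), and the line difference was -0.75 ± 0.37 with a 95% interval of -1.57 to 0.08 (limma adjusted p = 0.177).

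Gzmb, the granzyme that cytotoxic cells deliver into their targets, went from 6.71, 4.31 and 2.31 FPKM to 18.7, 21.2 and 17.2 FPKM across the MC38 groups, which do not overlap but miss the threshold (limma adjusted p = 0.053). B16 went from 0, 0.157 and 0 FPKM to 15.0, 1.89 and 6.01 FPKM (response 2.71, limma adjusted p = 0.0015). Its line difference was 0.75 with a wide 95% interval of -0.79 to 2.29. Nkg7, a granule membrane protein of cytotoxic cells, passed in both lines, at 2.18 in MC38 and 2.61 in B16.

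Ifng, which encodes interferon-gamma, was 0.977, 0.335 and 0.103 FPKM in MC38 PBS and 2.57, 4.99 and 3.83 FPKM in MC38 anti-PD-1 libraries. It was listed at 0 in all 3 B16 PBS libraries and at 1.40, 0.0531 and 0.745 FPKM with anti-PD-1. It rose in MC38 by 1.72 (limma adjusted p = 0.016), and the B16 response of 0.71 missed the threshold (limma adjusted p = 0.077). The line difference of -1.0 (95% interval -1.94 to -0.06) did not pass after adjustment (limma adjusted p = 0.116).

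Other genes of a panel chosen for description had no called line difference either. Prf1, the pore-forming perforin, rose by 1.36 in MC38 and 1.01 in B16, and its line difference had a 95% interval of -1.25 to 0.55. Pdcd1, which encodes PD-1, rose by 1.5 and 0.88, with an interval of -1.44 to 0.21. Cd274, which encodes PD-L1, lay above PBS without overlap in MC38 (14.9 to 23.2 FPKM against 42.5 to 45.0 FPKM), whereas B16 values of 9.51 to 15.1 FPKM with PBS overlapped with 32.2, 9.40 and 26.8 FPKM with anti-PD-1. Its interval for the line difference was -1.62 to 0.60. Foxp3, the factor that defines regulatory T cells, was at most 0.382 FPKM in all 12 libraries and was not tested.

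The pan T cell list behaved alike. Of its 13 tested genes 11 rose in MC38 and 10 in B16, with medians of 1.29 and 1.19. Its sum in MC38 was 13.5 to 21.2 FPKM in knock-out PBS and 61.3 to 101 FPKM in knock-out anti-PD-1 libraries. The Chek2-WT MC38 libraries had 56.6 to 78.1 FPKM with PBS and 59.8 to 74.2 FPKM with anti-PD-1. Among 8 tested NK cell genes 4 rose in MC38 and 6 in B16, with medians of 1.47 and 1.16. The median line differences of the CD8, pan T and NK lists were -0.28, -0.24 and -0.28, and these signs turned with the pseudocount: at 0.1 FPKM in place of 1 they were 0.88, 0.70 and 0.55. No direction between the lines is therefore read from these 3 lists.

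A few T cell genes had a called line difference below 0, but these calls depended on the processing. Icos, a co-stimulatory receptor of activated T cells, was 0.686, 0.317 and 0.481 FPKM in MC38 PBS and 2.53, 3.40 and 2.67 FPKM in MC38 anti-PD-1 libraries. B16 values were 0.0431, 0.224 and 0.138 FPKM with PBS and 0.621, 0.394 and 0.199 FPKM with anti-PD-1, where the groups overlap. Its line difference was -1.07 ± 0.21 (limma adjusted p = 0.00562), and -0.88 with centring, but it did not pass with a pseudocount of 0.1 FPKM (limma adjusted p = 0.134). Ctla4, an inhibitory receptor, differed by -0.70 (limma adjusted p = 0.0322), although it rose in both lines. Fasl, the ligand that triggers death through Fas, differed by -0.94, and Klrk1, which encodes the activating receptor NKG2D, by -1.02, but neither passed with centring (limma adjusted p = 0.054 and 0.083). Over the alternatives the adjusted p reached 0.432 for Ctla4, 0.303 for Fasl and 0.515 for Klrk1, each with the pseudocount of 0.1 FPKM, and all 3 calls were also lost when single libraries of either line were left out. Levels in B16 were low, and mean Klrk1 went from 0.0472 to 0.481 FPKM in B16 and from 0.602 to 3.41 FPKM in MC38, so the ratio of the means was larger in B16 although the log2(FPKM + 1) difference was smaller. The same was true of Fasl, at 0.0321 and 0.338 FPKM in B16 and 0.223 and 2.04 FPKM in MC38.

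Xcr1, the chemokine receptor of cross-presenting dendritic cells, had a line difference of -0.85 (limma adjusted p = 0.0243) and did not pass with centring (limma adjusted p = 0.25). All of these genes were at or below 3.91 FPKM in every knock-out library, where 1 FPKM of pseudocount weighs on the difference.

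**Figure D3:**
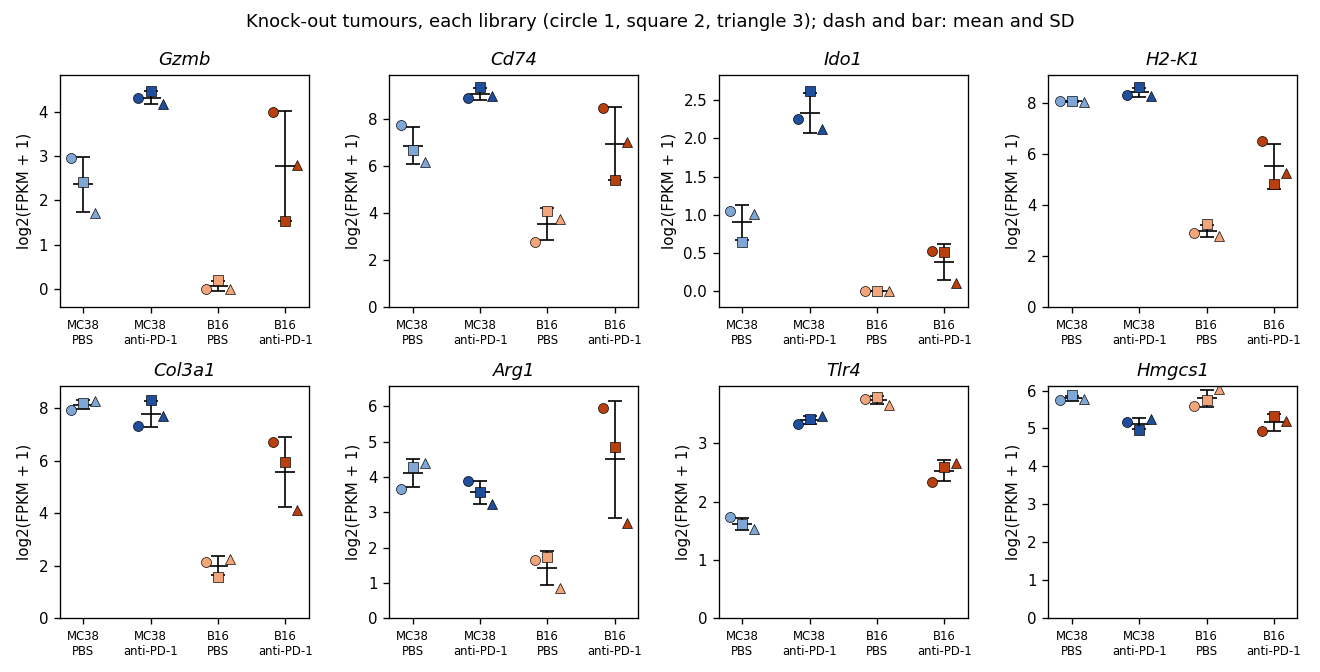
log2(FPKM + 1) of 8 genes (vertical axes) in each of the 12 knock-out libraries, by line and treatment (horizontal axes), with group mean and SD. Gzmb and Cd74 lie higher with anti-PD-1 in both lines, Ido1 mainly in MC38, H2-K1, Col3a1 and Arg1 in B16, Tlr4 moves in opposite directions, and Hmgcs1 lies lower in both.

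Among antigen presentation genes, the line difference passed for some of class I and for no tested gene of class II. Whether class I and class II differ from each other was not tested. Of 22 class I genes, all tested, 18 rose in B16 and 0 passed in MC38 by limma (1 at an unadjusted p under 0.05). Without overlap, however, 14 lay above PBS in MC38, 15 in B16 and 10 in both, against 14.4%, 25.3% and 6.39% of all tested genes. The medians were 1.68 in B16 and 0.27 in MC38, and the line difference passed for 9 genes, all higher in B16, with a median of 1.28 (-0.01 over all genes). With centring 6 passed and the median was again 1.28. Leaving out B16 anti-PD-1 replicate 1 gave 8 genes and a median of 0.93, and leaving out its replicate 2 gave 17 and 1.79.

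H2-K1, a classical class I heavy chain (chromosome 17, 33996017 to 34000347), measured 272, 270 and 264 FPKM in MC38 PBS and 318, 399 and 315 FPKM in MC38 anti-PD-1 libraries. In B16 it measured 6.59, 8.58 and 5.95 FPKM with PBS and 90.8, 27.3 and 37.4 FPKM with anti-PD-1. Neither line overlapped between treatments, and every B16 library stayed below every MC38 library. The response was 2.54 in B16 and 0.35 in MC38, and the line difference was 2.19 ± 0.47 (limma adjusted p = 0.00873, between 0.00156 and 0.0268 over the alternatives).

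H2-D1, the other classical heavy chain of these mice, gave 617, 584 and 564 FPKM, then 694, 699 and 673 FPKM, in MC38. B16 gave 55.3, 84.1 and 50.2 FPKM with PBS and 528, 149 and 305 FPKM with anti-PD-1, so replicate 1 came close to the MC38 level. This made a line difference of 1.98 (limma adjusted p = 0.018, at most 0.0502 over the alternatives). H2-Q6, a class Ib gene, differed by 2.12 (limma adjusted p = 0.0066). The H2-K, D and Q genes are close copies, so reads may be shared among them and single values are uncertain.

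The 9 tested class II genes all rose in B16 and all lay above PBS without overlap in both lines, although 1 passed in MC38. Medians were 2.39 in B16 and 1.64 in MC38. The median line difference was 0.95, and 8 of the 9 genes lay above 0, but none passed. Cd74, the invariant chain that guides class II assembly, was 214, 100 and 71.8 FPKM in MC38 PBS and 473, 646 and 493 FPKM in MC38 anti-PD-1 libraries. It was 5.77, 15.8 and 12.4 FPKM in B16 PBS and 352, 40.8 and 127 FPKM in B16 anti-PD-1 libraries. The responses were 2.19 and 3.43, and the line difference of 1.23 had a 95% interval of -0.84 to 3.30 (limma adjusted p = 0.373). H2-Aa, H2-Ab1 and H2-Eb1, chains of the class II molecules, had responses of 2.37, 2.18 and 2.23 in MC38 and 3.40, 3.43 and 3.17 in B16. Of these, H2-Ab1 passed in MC38 (limma adjusted p = 0.049), but with centring, among other alternatives, it did not (limma adjusted p = 0.0502), and it was the list's only call there.

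Genes induced by interferon-gamma were divided. Of 33 tested, 22 rose and 1 fell in B16, against 2 that rose in MC38, yet 27 lay above PBS without overlap in MC38 and 13 in B16. The medians were 0.86 in MC38 and 1.30 in B16, and the summed level of the list with anti-PD-1 was 1980, 2150 and 1790 FPKM in MC38 but 1730, 249 and 951 FPKM in B16. B16 replicate 2 lay inside the B16 PBS range of 160 to 303 FPKM. By limma 0 genes of the list had a called line difference above 0 (2 at an unadjusted p under 0.05), whereas 16 did once that library was left out, and the median moved from 0.47 to 1.02. Without replicate 1 the median was 0.01.

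Cxcl9, a chemokine that draws T cells, shows this spread. It was 47.0, 25.1 and 21.3 FPKM in MC38 PBS and 96.7, 127 and 107 FPKM in MC38 anti-PD-1 libraries. In B16 it was 0.797, 4.53 and 1.08 FPKM with PBS and 47.2, 2.63 and 27.1 FPKM with anti-PD-1. B16 replicate 2 fell within the PBS range, and the line difference of 0.77 had a 95% interval of -1.70 to 3.23.

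Ido1, which degrades tryptophan, was one of 2 genes of this list lower in B16. MC38 gave 1.07, 0.563 and 1.02 FPKM with PBS and 3.77, 5.16 and 3.36 FPKM with anti-PD-1. All 3 B16 PBS libraries were at 0, and the anti-PD-1 libraries gave 0.441, 0.434 and 0.0837 FPKM. That left a line difference of -1.04 ± 0.24 (limma adjusted p = 0.0112), and -1.16 with centring, but across the alternatives the adjusted p reached 0.833. The other was Jak2, a kinase of the interferon-gamma receptor, at -0.59, which was -0.26 with centring (limma adjusted p = 0.32).

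Gbp2b, a guanylate-binding protein induced by interferon, was among the 10 named for the most negative line differences, at -2.72 ± 0.49 (limma adjusted p = 0.00397). It measured 2.52, 0.485 and 0.325 FPKM in MC38 PBS and 18, 18.3 and 12.6 FPKM in MC38 anti-PD-1 libraries. B16 values were 0, 0.0441 and 0 FPKM with PBS and 0.948, 0 and 0.344 FPKM with anti-PD-1, so the B16 groups overlap. With a pseudocount of 0.1 FPKM the call was lost (limma adjusted p = 0.138). The means went from 0.0147 to 0.431 FPKM in B16 and from 1.11 to 16.3 FPKM in MC38, so their ratio was larger in B16, where it rests on values near 0. The difference stayed below 0 with either smaller pseudocount. Guanylate-binding proteins form a family of close copies. Of 29 type I interferon genes tested, 0 passed in MC38 by limma (7 at an unadjusted p under 0.05). In B16 8 rose, where 19.4% of all genes did. The medians were 0.55 in MC38 and 0.61 in B16. Without overlap, 22 lay above PBS in MC38 and 5 in B16, against 14.4% and 25.3% of all tested genes.

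Interferon-stimulated genes can carry short DNA elements near their start, and the promoters of genes named here were searched for 2 of them to show what the letters look like. Searched were the core of the interferon-stimulated response element, in which the letters GAAA are followed after any 2 bases by another GAAA, and TTCNNNGAA, the gamma-activated site, on both strands of the 250 bases before the start in RefSeq (GRCm38.p6). Of 115 genes named by rule, 80 had a promoter in that table, 9 held the first motif and 7 the second. Among all 32851 promoters 2.98% held the first and 7.02% the second. Among 895 promoters of genes that lay above PBS without overlap in both lines, 6.15% and 8.94% did, against 2.79% and 5.93% of 12603 promoters of tested genes. Genes with several listed starts count more than once, and a match is only a match of letters. The windows below show 30 bases each, 5′ to 3′ on the gene's strand with the matched bases in capitals, for genes with different patterns.
Isg15 (chr4:156200877-156200906, minus strand): tatgccgtagGAAAAGGAAAccgaaacaga
Cxcl10 (chr5:92349083-92349112, minus strand): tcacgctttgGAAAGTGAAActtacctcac
Fcgr4 (chr1:171018843-171018872, plus strand): ggtgtttctgGAAAAGGAAActggtgagat
Gbp2b (chr3:142594700-142594729, plus strand): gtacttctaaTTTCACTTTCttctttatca
Nkg7 (chr7:43436908-43436937, plus strand): ccccaaggtcTTCCAGGAAaccagttgtct

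These genes did not behave alike. Fcgr4, an activating Fc receptor, and Nkg7 lay above PBS without overlap in both lines, and Gbp2b did so in MC38. Isg15, a ubiquitin-like protein, had a response of 0.24 in MC38 and 1.01 in B16, and neither passed. Cxcl10, a T cell chemokine, rose in B16 by 0.99 and had a line difference of 0.32 with an interval of -0.69 to 1.32.

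Macrophage genes rose in B16. Of 19 tested, 13 rose in B16 and 0 passed in MC38 by limma (11 at an unadjusted p under 0.05), although 13 lay above PBS without overlap in MC38 and 10 in both lines. The medians were 1.52 and 0.74. The 5 Fc gamma receptor genes all rose in B16 and all lay above PBS without overlap in both lines, with medians of 2.20 and 1.36. Fcgr4 went from 47.4, 25.7 and 8.81 FPKM to 142, 138 and 119 FPKM in MC38, and from 0.889, 2.28 and 0.810 FPKM to 42.2, 4.08 and 16.3 FPKM in B16. Its line difference was 0.28 (95% interval -1.92 to 2.49).

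Among macrophage genes the line difference passed for Arg1 and Itgam. Arg1, the arginase of alternatively activated myeloid cells, measured 11.7, 18.4 and 19.9 FPKM in MC38 PBS and 13.7, 11 and 8.43 FPKM in MC38 anti-PD-1 libraries. B16 gave 2.15, 2.33 and 0.810 FPKM with PBS and 61.3, 28.0 and 5.50 FPKM with anti-PD-1. Only B16 separated by treatment, and its line difference was 3.64 ± 0.90 (limma adjusted p = 0.0166). Itgam, which encodes CD11b, differed by 1.91 (limma adjusted p = 0.0214, at most 0.062 over the alternatives). Chil3, a chitinase-like protein of macrophages, differed by 2.38 (limma adjusted p = 0.0198) and was 1.19, 1.02 and 0.979 FPKM in MC38 PBS and 0.229, 1.38 and 1.3 FPKM in MC38 anti-PD-1 libraries, which overlap. This call was lost with no filter on low values (limma adjusted p = 0.0555).

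**Figure D4:**
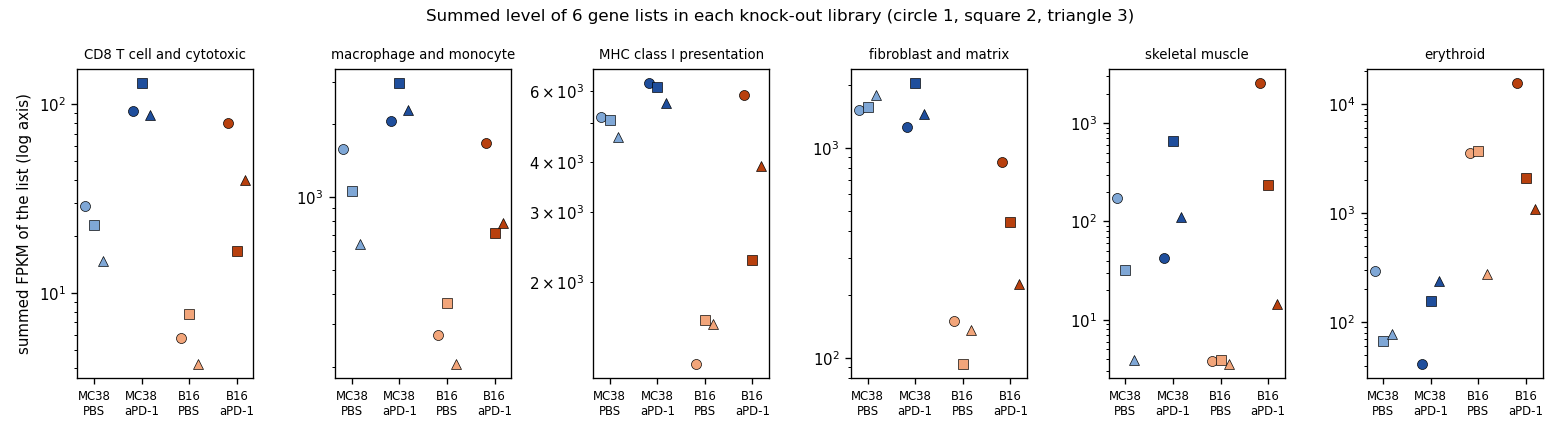
Summed FPKM of 6 gene lists (vertical log axes) in each knock-out library, by line and treatment (horizontal axes). B16 anti-PD-1 replicate 1 (circle) is highest of its group in all 6 lists, and B16 PBS libraries are the lowest group for the immune and matrix lists.

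Fibroblast and matrix genes rose in B16. Of 22 tested, 16 rose in B16 and 1 in MC38, with medians of 1.57 and 0.10. The line difference passed for 9, all higher in B16, with a median of 1.22, and with centring for 9 with a median of 1.64. Without B16 anti-PD-1 replicate 1, 9 passed and the median was 0.83. The summed level of the list was 93.3 to 149 FPKM in B16 PBS and 855, 443 and 225 FPKM in B16 anti-PD-1 libraries, while MC38 ran from 1510 to 1780 FPKM and from 1260 to 2040 FPKM. The muscle markers given above were also highest in replicate 1 and lowest in replicate 3 of the treated B16 group, and their part in this result was not tested.

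Col3a1, a fibrillar collagen chain (chromosome 1, 45311538 to 45349706), had the highest positive line difference among named protein-coding genes whose treatment groups did not overlap in at least 1 line, 3.93 ± 0.74 (limma adjusted p = 0.00509). It was 245, 289 and 308 FPKM in MC38 PBS and 159, 318 and 208 FPKM in MC38 anti-PD-1 libraries. It was 3.44, 1.99 and 3.82 FPKM in B16 PBS and 103, 60.4 and 16.2 FPKM in B16 anti-PD-1 libraries. MC38 groups overlap, B16 groups do not, and all B16 values lie below all MC38 values.

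Dcn, the collagen-binding proteoglycan decorin, gave 0.628, 0.323 and 0.369 FPKM in B16 PBS and 15.5, 10 and 2.82 FPKM in B16 anti-PD-1 libraries. Its MC38 values were 52.8, 59.1 and 47.6 FPKM and then 41.3, 97.3 and 48.6 FPKM, which overlap. The line difference was 2.5 ± 0.64 (limma adjusted p = 0.0198, at most 0.055 over the alternatives). Tnc, the matrix protein tenascin-C, differed by 2.5, Timp1, an inhibitor of metalloproteinases, by 2.33, Igfbp6, which binds insulin-like growth factor, by 2.37, and Loxl1, which cross-links elastin, by 2.18. Of these Loxl1 did not pass with centring (limma adjusted p = 0.051), and the limma adjusted p of Timp1 reached 0.0569 over the alternatives.

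Ly6a, the surface protein Sca-1, and Ly6c1 had line differences of 2.87 and 2.27 (limma adjusted p = 0.0266 and 0.00952). Over the alternatives the limma adjusted p of Ly6a reached 0.0717. Ly6a was 2.04, 5.24 and 6.28 FPKM in B16 PBS and 163, 31.9 and 47.1 FPKM in B16 anti-PD-1 libraries, and in MC38 the treated range of 180 to 222 FPKM overlapped with 73.9 to 214 FPKM. Ly6 genes have close copies, and their values are uncertain to that extent.

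Among 14 TGF-beta response genes, the line difference passed for 3 higher and 1 lower in B16, against 8.45% and 13.7% of all genes. The median was 0.64. Tgfb3, a TGF-beta ligand, fell in MC38 from 40.2, 56.6 and 72.9 FPKM to 22, 24.4 and 18.1 FPKM, while B16 values were 4.82, 4.98 and 4.32 FPKM and 6.68, 5.09 and 5.20 FPKM. Its line difference was 1.54 ± 0.27 (limma adjusted p = 0.00346). Pmepa1, a TGF-beta-induced inhibitor of the pathway, fell in MC38 by 0.53 and rose in B16 by 1.06, for a line difference of 1.59 (limma adjusted p = 0.000336). Tgfbi, a secreted matrix protein, differed by 1.65 and did not pass with centring (limma adjusted p = 0.08).

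Of 13 tested genes of the metalloproteinase list, 3 had higher and 1 lower line differences, against 8.45% and 13.7% of all genes. With centring 2 were higher and 1 lower, against 5.86% and 6.3% of all genes. Mmp9, a gelatinase, measured 9.99, 13.6 and 15.8 FPKM in MC38 PBS and 7.13, 8.12 and 5.66 FPKM with anti-PD-1, and at most 0.0164 FPKM in B16 PBS against 1.43, 0.491 and 0.300 FPKM. It differed by 1.55 (limma adjusted p = 0.00733). Timp3, another inhibitor of metalloproteinases, went the other way at -1.80, after a rise of 1.24 in MC38.

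By rule, 6 genes with opposite responses, each separated without overlap in both lines, were taken. Tlr4, the receptor for bacterial lipopolysaccharide (chromosome 4, 66827584 to 66930284), was 2.32, 2.06 and 1.88 FPKM in MC38 PBS and 9.01, 9.66 and 10 FPKM in MC38 anti-PD-1 libraries. In B16 it was 12.6, 12.8 and 11.6 FPKM with PBS and 4.04, 5.02 and 5.36 FPKM with anti-PD-1. It rose by 1.78 in MC38 and fell by 1.21 in B16, a line difference of -2.98 ± 0.14 (limma adjusted p = 1.92e-06, at most 0.00502 over the alternatives). In Chek2-WT libraries, however, single groups held both levels: MC38 PBS gave 9.44, 1.32 and 1.89 FPKM, MC38 anti-PD-1 1.77, 1.64 and 9.84 FPKM, and B16 PBS 10.4, 2.53 and 9.57 FPKM.

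Itga4, the integrin chain of VLA-4, measured 1.96, 1.13 and 0.902 FPKM in MC38 PBS and 3.92, 5.22 and 4.72 FPKM in MC38 anti-PD-1 libraries. B16 gave 12.1, 9.37 and 14.0 FPKM with PBS and 3.41, 4.90 and 4.51 FPKM with anti-PD-1, for a line difference of -2.57 ± 0.27 (limma adjusted p = 0.000352). Epha3, an ephrin receptor, rose by 1.29 in MC38 and fell by 0.94 in B16, and the line difference was -2.23. With centring the B16 value was -0.48 and did not pass (limma adjusted p = 0.145), while the line difference was -1.78 and did (limma adjusted p = 0.00873). Sp4, a zinc-finger transcription factor, was at 0.297, 0.305 and 2.07 FPKM in the treated knock-out B16 libraries. Single Chek2-WT groups were also split, at 1.48, 5.03 and 5.11 FPKM in B16 PBS and 2.05, 0.685 and 0.694 FPKM in MC38 anti-PD-1 libraries. The knock-out responses of Sp4 were 0.71 in MC38 and -1.54 in B16, of which B16 passed. Medag moved the other way, with responses of -0.85 in MC38 and 1.46 in B16.

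Atp7a, a copper-transporting ATPase, was the sixth. It moved little in MC38, where 4.46, 3.99 and 4.09 FPKM became 4.78, 4.73 and 5.06 FPKM. In B16 16.3, 17.4 and 18.9 FPKM became 1.13, 1.42 and 1.99 FPKM. The line difference was -3.07 ± 0.16 (limma adjusted p = 3.97e-06).

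Most of the 10 lowest line differences came from falls in B16 alone. Qser1 (chromosome 2, 104754795 to 104816760) was listed at 0 in all 3 B16 anti-PD-1 libraries and at 12.1, 12.2 and 14.8 FPKM in B16 PBS. It was 10.9, 13.1 and 11.5 FPKM in MC38 PBS and 10.9, 9.66 and 11.2 FPKM in MC38 anti-PD-1 libraries, and its line difference was -3.66 ± 0.14 (limma adjusted p = 3.23e-07). It was the 1 gene at 0 in those 3 libraries and at 1 FPKM or more in every one of the other 21. A listed 0 for a gene otherwise present can be a failed estimate, and whether it is one here was not tested.

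Zbed6, a transcription factor of transposon origin, gave 30.6, 30.6 and 29.7 FPKM and 29.2, 21.2 and 27.3 FPKM in MC38. B16 went from 25.3, 16.9 and 26.7 FPKM to 0.441, 0.687 and 1.34 FPKM, for a line difference of -3.49. Zbed6 lies within an intron of another gene, so reads of both may mix. Zfp422, Ankfn1, Klhl11 and Rc3h2 fell in B16 by 2.90, 2.70, 2.55 and 2.47, and in MC38 none of them passed. Ankfn1 was at most 0.0276 FPKM in every MC38 library, so its line difference is the B16 fall alone. Zfp422, like Tlr4, held both levels within single Chek2-WT groups, at 4.27, 26.7 and 24.6 FPKM in B16 PBS and 4.66, 25.4 and 28.7 FPKM in B16 anti-PD-1 libraries. Centring left all 10 called.

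Many DNA damage genes fell in B16, but once length and GC content were centred their counts were near the shares of all genes. Their median transcript length was 4251 bases, against 2890 over all tested genes. Of 27 tested, 15 fell and 1 rose in B16, where 23.9% and 19.4% of all genes did. In MC38 1 rose, against 2.93% of all genes. The line difference passed for 9 lower and 1 higher, against 13.7% and 8.45% of all genes. With centring, 5 fell in B16 (14.4% of all genes did), and 1 line difference remained lower (6.3% of all genes). That gene was Atm, the kinase that activates CHK2, at 8.59, 7.97 and 6.68 FPKM in MC38 PBS and 8.18, 7.34 and 7.97 FPKM in MC38 anti-PD-1 libraries. In B16 it was 9.13, 8.07 and 9.24 FPKM with PBS and 1.21, 1.40 and 1.78 FPKM with anti-PD-1. The line difference was -2.02 ± 0.16 (limma adjusted p = 0.000112), and -1.46 with centring. Prkdc, a kinase of end joining, and Brca2, a mediator of homologous recombination, differed by -0.84 and -0.80, and by -0.28 and -0.25 with centring, where neither passed (limma adjusted p = 0.22 and 0.43).

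Cell cycle genes were called in B16 about as often as genes at large. Of 28 tested, 5 rose and 7 fell in B16, where 19.4% and 23.9% of all genes did, and 0 passed in MC38 by limma (5 at an unadjusted p under 0.05). The line difference passed for 5, all lower, against 13.7% of all genes. Mki67, the proliferation marker Ki-67, was 54.3, 49 and 47.7 FPKM and then 46.4, 39.3 and 46.1 FPKM in MC38. In B16 it was 53.1, 53.4 and 64.5 FPKM and then 19.1, 24.9 and 25.9 FPKM. It had a line difference of -1.07 (limma adjusted p = 0.00275), and -0.52 with centring (limma adjusted p = 0.053). Top2a, which untangles DNA, differed by -0.78, and by -0.45 with centring, where it passed (limma adjusted p = 0.011).

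Among the markers of the tumour lines, Tyrp1, a melanin enzyme, was at 0 in all MC38 knock-out libraries. In B16 it fell from 1780, 1320 and 1460 FPKM to 703, 751 and 922 FPKM (response -0.94, limma adjusted p = 0.00018). Its line difference is that fall alone. Mitf, the master factor of melanocytes, fell in B16 from 133, 173 and 196 FPKM to 78.0, 85.3 and 111 FPKM, and its line difference was -1.36. Tyr differed by -0.62 and by -0.17 with centring, where it did not pass (limma adjusted p = 0.42). Over the 15 tested melanocyte genes 2 rose and 4 fell in B16, near the 19.4% and 23.9% of all genes, and the summed level was 6300 to 7160 FPKM with PBS and 6110 to 7720 FPKM with anti-PD-1, which overlap. In MC38 the epithelial keratins Krt18 and Krt19 were at or below 1.12 FPKM in the PBS libraries and reached 13.9 and 16.5 FPKM in 1 anti-PD-1 library, replicate 2.

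Small structural RNAs were highest in the knock-out MC38 PBS libraries. The list summed to 187 to 197 FPKM there and to 64.6, 26.1 and 19.9 FPKM in knock-out MC38 anti-PD-1 libraries. In knock-out B16 it was 22.1 to 41.8 FPKM with PBS and 21.3 to 35.8 FPKM with anti-PD-1. In Chek2-WT tumours it was 28.1 to 37.6 and 21.9 to 42.7 FPKM in MC38, and 38.6 to 43.0 and 15.6 to 35.5 FPKM in B16. The knock-out MC38 PBS group therefore stood apart from every other group, and the treated MC38 libraries lay near the rest. Of 11 tested, 7 fell in MC38, with a median of -1.71, and in B16 1 rose and the median was -0.09. The line difference passed for 5, all higher in B16. Rn7s1, a copy of the 7SL RNA of the signal recognition particle, went from 41.4, 42.1 and 41.1 FPKM to 15.8, 2.99 and 2.65 FPKM in MC38 (response -2.77, limma adjusted p = 0.018). These RNAs are short and have many copies, and their capture depends on the library preparation, so single values are uncertain.

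A gene for 5.8S ribosomal RNA, n-R5-8s1, went from 72.6, 60.3 and 71.0 FPKM to 10.3, 4.85 and 5.24 FPKM in knock-out MC38, against 4.14 to 8.6 FPKM in the Chek2-WT MC38 libraries. B16 rose from 0.177, 0.206 and 0.675 FPKM to 1.66, 1.30 and 2.93 FPKM. The line difference was 4.32 ± 0.37 (limma adjusted p = 0.000174). Rny3, a Y RNA, differed by 2.69.

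Some genes of glucose metabolism fell in both lines. The hypoxia and glycolysis list had 23 tested gene models. Of these, 3 fell in MC38 and 8 in B16, against 1.16% and 23.9% of all genes. Without overlap, 6 lay below PBS in both lines, against 6.05% of all genes. The medians were -0.28 and -0.10. With centring 2 fell in B16, against 14.4% of all genes. Gys1, the muscle-type glycogen synthase, fell from 18.2, 16.6 and 19.7 FPKM to 11.8, 7.63 and 11.4 FPKM in MC38 and from 28.0, 26.5 and 29.5 FPKM to 12.4, 13.1 and 14.3 FPKM in B16. The responses were -0.78 and -1.02, and the line difference had a 95% interval of -0.66 to 0.18. Ero1l, an oxidase of the endoplasmic reticulum, had responses of -0.63 and -1.12, of which B16 passed.

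Hmgcs1, an enzyme of cholesterol synthesis, fell by nearly the same amount in both lines. It was 52.4, 57.5 and 53.7 FPKM in MC38 PBS and 35.1, 30.2 and 37.0 FPKM in MC38 anti-PD-1 libraries, and 47.5, 52.4 and 64.8 FPKM and then 29.4, 39.5 and 35.9 FPKM in B16. The responses were -0.67 and -0.64 (limma adjusted p = 0.026 and 0.0032), and the line difference was 0.03 with a 95% interval of -0.38 to 0.44. Oxct1, which uses ketone bodies, Mpp2, Trps1 and Robo1 also lay below PBS without overlap in both, with responses between -0.61 and -0.72 in MC38. In B16 they were -0.77, -0.64, -0.62 and -0.83, but with centring that of Trps1 was -0.01 (limma adjusted p = 0.98) and that of Robo1 -0.38. Uprt fell in both but further in B16, at -0.57 and -2.38.

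Gpx3, a secreted glutathione peroxidase, had one of the larger shared rises, at 2.80 in MC38 and 2.99 in B16 (limma adjusted p = 0.049 and 0.0056). Its MC38 values were 16.5, 3.77 and 8.86 FPKM and then 34.7, 124 and 61.8 FPKM, with replicate 2 highest. B16 gave 2.29, 0.655 and 2.14 FPKM and then 49.6, 20.3 and 6.90 FPKM, with replicate 1 highest. The same replicates were highest for the skeletal muscle and adipocyte markers in their groups, and the part of those tissues in the result was not tested. Lst1 and Clec4a1, both myeloid genes, lay above PBS without overlap in both lines, with responses of 1.89 and 1.82 in MC38 and 2.31 and 2.29 in B16, of which the B16 values passed.

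The other immune lists are given beside the shares of all tested genes that rose, 2.93% in MC38 and 19.4% in B16, and that had a line difference, 8.45% higher and 13.7% lower in B16. Of 10 tested checkpoint genes, 6 rose in MC38 and 4 in B16, and the median line difference was -0.61. Of 10 monocyte chemokine and growth factor genes, 6 rose in B16 and 0 passed in MC38 by limma (6 at an unadjusted p under 0.05), with a median line difference of 0.64. T cell chemokine and receptor genes rose for 4 of 13 in MC38 and 10 of 13 in B16. In MC38 and B16 respectively, 1 and 4 of 9 neutrophil genes rose, 1 and 4 of 4 B cell genes, 3 and 4 of 10 dendritic cell genes, 2 and 2 of 5 regulatory T cell genes, 3 and 6 of 11 complement genes and 3 and 7 of 9 inflammatory cytokine genes. Of 12 nucleic acid sensing genes, 3 rose in MC38, and 6 rose and 1 fell in B16. The line difference passed below 0 for 2 of the 5 regulatory T cell genes, 2 of the 12 nucleic acid sensing genes, 1 checkpoint gene and 1 dendritic cell gene, and above 0 for 1 neutrophil gene and 1 inflammatory cytokine gene. Lif, a cytokine of the interleukin-6 family, was 3.69 to 6.38 FPKM in MC38 and at most 0.968 FPKM in B16. Its line difference was 0.93 (limma adjusted p = 0.0214), and the call was lost without MC38 PBS replicate 2 and with no filter on low values (limma adjusted p at most 0.0569).

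Outside the immune lists, the median line difference was -0.29 for 15 integrated stress genes, -0.48 for 6 epithelial genes and 0.43 for 9 replication histones. Medians of 0.06 for 17 immediate early genes, 0.12 for 18 p53 targets, 0.03 for 13 mitochondrially encoded genes, 0.17 for 14 endothelial genes, 0.13 for 6 Schwann cell genes and 0.24 for 3 keratinocyte genes each turned sign under at least 1 alternative. The median of 0.77 for 10 adipocyte genes was -0.01 without MC38 anti-PD-1 replicate 1. Egr2, an immediate early transcription factor, was 2.22, 3.36 and 2.9 FPKM in MC38 PBS and 1.44, 1.37 and 1.46 FPKM in MC38 anti-PD-1 libraries, a response of -0.65 (limma adjusted p = 0.0396) that missed the threshold when any single MC38 library other than PBS replicate 1, or any B16 PBS library, was left out, and with smaller pseudocounts, no filter on low values or centring. It rose in B16 from 0.488, 0.683 and 0.36 FPKM to 1.47, 1.55 and 0.882 FPKM. The lines differed by 1.25 ± 0.21 (limma adjusted p = 0.00306), and this call was kept under every alternative run. Among p53 targets, Plk2, a kinase, differed by 0.94 (limma adjusted p = 0.0148), while Trp53inp1 and Ccng1 differed by -1.53 and -0.91 (limma adjusted p = 0.00743 and 0.0136). Hist1h2bc, a histone H2B gene, differed by 1.01 (limma adjusted p = 0.0107). Of the subunits of respiratory complex I, mt-Nd4l differed by -1.16 (limma adjusted p = 0.00553) and mt-Nd5 by -0.93 (limma adjusted p = 0.0237), and mt-Nd5 lost its call without MC38 anti-PD-1 replicate 1, B16 PBS replicate 2 or B16 PBS replicate 3, or with no filter on low values (limma adjusted p at most 0.0839).

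**Figure D5:**
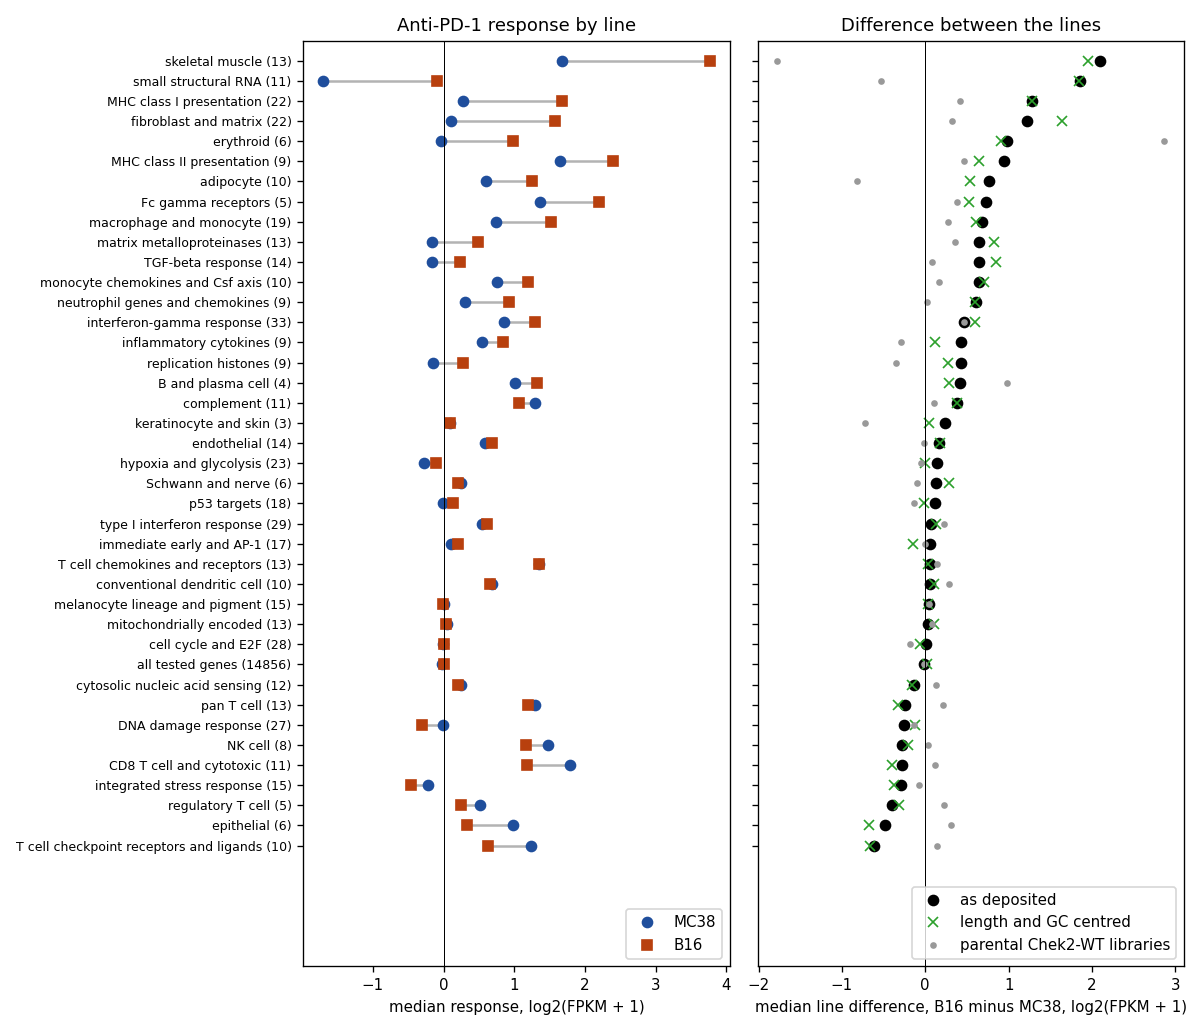
Median response of each gene list in knock-out MC38 and B16 (left) and median line difference as deposited, after length and GC centring, and in the Chek2-WT libraries (right), all in log2(FPKM + 1), with the number of tested genes in parentheses. MHC class I and matrix lists have median line differences of 1.28 and 1.22 in knock-out tumours against 0.42 and 0.32 in Chek2-WT tumours.

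Against the Chek2-WT tumours, 0 of the 22 class I and 0 of the 22 matrix genes passed limma's test of a genotype difference in the line contrast (0 and 6 at an unadjusted p under 0.05), so a difference between genotypes was not shown for either list. Over all genes 12.5% passed it, and 28 of the 114 named genes tested did. The lowest adjusted p among them was that of Qser1 (-3.6, limma adjusted p = 4.12e-10), followed by Atp7a (-2.9) and Ankfn1 (-2.74, both limma adjusted p = 1.83e-06). Next came n-R5-8s1 (5.31, limma adjusted p = 1.96e-05) and Uprt (-1.68, limma adjusted p = 2.75e-05). Other falls in B16 that passed were those of Klhl11, Rc3h2, Itga4 and Zbed6 (-2.44, -2.07, -2.51 and -3.09) and Atm (-1.82, limma adjusted p = 0.00088). Tlr4 passed at -3.46 (limma adjusted p = 0.033). Among genes higher in B16, Rn7s1 (3.62, limma adjusted p = 0.0204), Timp1 (2.87, limma adjusted p = 0.034), Igfbp6 (2.34, limma adjusted p = 0.029), Lif (1.46, limma adjusted p = 0.0055) and Pmepa1 (1.26, limma adjusted p = 0.029) passed. The skeletal muscle and erythroid lists had Chek2-WT median line differences of -1.78 and 2.87. In the knock-out tumours the same medians were 2.10 and 0.98, and 0 genes of either list had a line difference past the limma threshold or at an unadjusted p under 0.05.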

How the data were processed

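Gene-level FPKM values of 24 mouse tumour libraries were deposited by the authors, 1 file per library, with 55335 genes each. The submitters' processing notes name FastQC, STAR 2.5, Cuffnorm, DESeq and the build mm10; further settings are not given in the sources used here. Gene symbols, lengths and GC content came from GENCODE M21 (GRCm38), in which 55154 gene identifiers matched. The 12 knock-out libraries were fitted with limma 3.58.1 (R 4.3.3) on log2(FPKM + 1), 1 mean per group and trended moderation, after keeping genes with 1 FPKM in at least 3 libraries, and p-values were adjusted by Benjamini-Hochberg. The script was tested on simulated data. FPKM are not counts. Only 16.0% to 26.9% of low values fitted a whole number of reads (tolerance 0.02), so counts were not rebuilt, and depth was estimated at 13260000 to 23850000 reads per knock-out library. No pair of libraries was a duplicate.

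Genes named are Chek2 and a panel of 8 genes, the 10 largest called line differences in each direction (groups without overlap in at least 1 line, a group mean of at least 1 FPKM), the 10 largest shared separations in each direction, 6 opposite ones (all these among named protein-coding genes, without Gm, Rik, receptor segment and pseudogene models), and up to 3 called genes (otherwise the 2 most abundant) of each of 39 lists. Members and lists were chosen with earlier results of these data known. Of 588 listed symbols 587 matched, 2 of them through a synonym. Alternatives were other pseudocounts, filters, scalings, moderation and left-out libraries. Length and GC centring (50 bins) and the overlap counts without B16 anti-PD-1 replicate 1 were added after seeing the data.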

Additional observations from a re-analysis of the deposited data

Results flagged for a closer look

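The response to anti-PD-1 differed between the knock-out lines by the test of the difference itself (limma, adjusted over all genes) for 3295 genes, and the difference between lines depended on the genotype for 1855 genes. Values below are log2(FPKM + 1) differences, B16 minus MC38, for the genes named by rule. Lower in B16 were the values -3.66 for Qser1, -3.49 for Zbed6, -3.07 for Atp7a, -2.98 for Tlr4, -2.97 for Zfp422, -2.72 for Gbp2b, -2.71 for Ankfn1, -2.57 for Itga4 and -2.5 for Klhl11. These were followed by -2.36 for Rc3h2, -2.25 for Sp4, -2.23 for Epha3, -2.02 for Atm, -1.81 for Uprt, -1.80 for Timp3, -1.53 for Trp53inp1, -1.36 for Mitf and -1.16 for mt-Nd4l. Then came -1.09 for Vwf, -1.07 for Icos, -1.07 for Mki67, -1.04 for Ido1, -1.02 for Klrk1, -0.94 for Tyrp1, -0.94 for Fasl, -0.93 for mt-Nd5 and -0.92 for Mbp. Closer to 0 lay -0.91 for Ccng1, -0.85 for Xcr1, -0.84 for Prkdc, -0.80 for Brca2, -0.78 for Top2a, -0.74 for Hif1a, -0.71 for Dhx9, -0.70 for Ctla4 and -0.68 for Ikzf2. Nearest to 0 lay -0.67 for Bub1, -0.62 for Ikbke, -0.62 for Tyr and -0.59 for Jak2.

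Higher in B16, from the smallest, were 0.45 for Krt10, 0.93 for Lif, 0.94 for Plk2, 1.01 for Hist1h2bc, 1.25 for Egr2, 1.54 for Tgfb3, 1.55 for Mmp9 and 1.59 for Pmepa1. Above these stood 1.65 for Tgfbi, 1.91 for Itgam, 1.98 for H2-D1, 2.12 for H2-Q6, 2.18 for Loxl1, 2.19 for H2-K1, 2.27 for Ly6c1, 2.31 for Medag and 2.33 for Timp1. Larger still were 2.37 for Igfbp6, 2.38 for Chil3, 2.5 for Dcn, 2.5 for Tnc, 2.55 for Rn7s1, 2.69 for Rny3, 2.87 for Ly6a, 3.64 for Arg1 and 3.93 for Col3a1. The highest was 4.32 for n-R5-8s1.

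The change of the line difference with genotype, knock-out minus Chek2-WT, passed for 28 of the 114 named genes tested. It was -3.6 for Qser1, -3.46 for Tlr4, -3.09 for Zbed6, -2.9 for Atp7a, -2.74 for Ankfn1, -2.51 for Itga4, -2.44 for Klhl11, -2.21 for Sp4 and -2.07 for Rc3h2. It was -1.95 for Epha3, -1.82 for Atm, -1.68 for Uprt, -1.56 for Trp53inp1, -1.5 for Mitf, -1.19 for Ido1, -1.19 for mt-Nd5, -1.09 for Tyrp1, -1.08 for mt-Nd4l, -0.93 for Mbp, -0.9 for Mki67, -0.67 for Dhx9 and -0.61 for Hif1a. Above 0 it was 1.26 for Pmepa1, 1.46 for Lif, 2.34 for Igfbp6, 2.87 for Timp1, 3.62 for Rn7s1 and 5.31 for n-R5-8s1. In a fit of 24 libraries this is the interaction of line, genotype and treatment.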

How the results depend on the processing

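The length and GC centring, added after seeing the data, gave 1806 line differences in place of 3295 and 774 genotype-dependent ones in place of 1855. The MC38 response (609 genes) was 201 and 281 with pseudocounts of 0.1 and 0.25 FPKM, 226 at a minimum of 5 FPKM, 199 with the minimum asked of each line and 1046 in the fit of all 24 libraries. The Chek2-WT line difference (1 gene) was 12 without a filter. Genes below PBS in both lines (899) were 1232 with protein-coding genes at equal sums and 658 at 5 FPKM, and those above it (949) were 592 and 624. Leaving out 1 library at a time gave 103 to 978 genes for MC38, 5116 to 6338 for B16, 2409 to 3413 for the line difference, 1403 to 2127 for its change with genotype and 1 to 4 for Chek2-WT. Without B16 anti-PD-1 replicate 1, 993 genes lay above PBS in both lines and 922 below. The causes of these changes in the counts were not tested. Of the 67 named line differences called, 48 (no filter) to 67 (no trend) stayed called over the alternatives in which all 67 were tested, 52 of them with centring, and none reversed. No paired analysis was possible because the labels give no replicate numbers and the numbers used here follow accession order. Depth does not limit the abundant genes, while genes below 1 FPKM rest on few reads.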
